A study of Mus musculus with 6 samples.

Results

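The genes of the secreted plasma proteins Serpina1e, Serpina7, C6, C8b and F12 were followed in mouse liver RNA, 5 of the 1834 genes of a deposited table. They were chosen by name, with their measured difference between the same libraries in view, so their values are given as a description and without a test. The libraries were of livers that had received an adeno-associated virus (AAV) with Ly6d (AAV-Ly6d, genotype label Ly6d overexpression, 3 libraries) or an AAV with green fluorescent protein (AAV-GFP, genotype label WT, 3 libraries). An AAV is a viral vector that brings a gene into liver cells, and Ly6d encodes a small membrane-anchored protein. All mice had the same diet, per the series text, and the study title concerns metabolic dysfunction-associated steatotic liver disease. The labels do not give strain, sex, age, diet or the vector's promoter, nor do they say that each library is another mouse, so the p-values below measure only the spread between these libraries, which may be technical.

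Hepatocytes make and secrete most proteins of the blood plasma. Serpins are a family of such proteins whose exposed reactive loop traps a protease, although some members carry hormones instead. Complement proteins are activated in a cascade whose late components assemble into a pore, the membrane attack complex, and the contact phase of clotting starts when factor XII meets a negatively charged surface. Serpina1e encodes one of several mouse copies of alpha-1-antitrypsin, a protein known as an inhibitor of neutrophil elastase. The copies differ in the reactive loop region, and whether the product of Serpina1e inhibits elastase was not tested. Serpina7 encodes thyroxine-binding globulin, a serpin that carries thyroid hormone. C6 and C8b encode component 6 and the beta chain of component 8 of the membrane attack complex, and F12 encodes factor XII, the protease zymogen of the contact phase.

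All values are normalised read counts, that is reads divided by a factor per library. Ly6d, the check of the labels, had 3181, 1799 and 3275 in AAV-Ly6d replicates 1 to 3, against 56.1, 9.68 and 182 in AAV-GFP replicates 1 to 3. The reads recovered for the 1834 genes summed to between 3835101 and 4359932 in AAV-Ly6d and to between 3248078 and 3448888 in AAV-GFP. AAV-GFP replicate 2 stood apart. The median ratio of its values to the geometric mean over libraries, with the ratios of all libraries centred on 1, was 1.36, while AAV-GFP replicates 1 and 3 had 1.023 and 1.027, and without it the median log2 fold change of the table was -0.40 in place of -0.67. It held 743167 for Apob, the gene of the main lipoprotein of the liver, where the other AAV-GFP libraries held 201516 and 186314. Its value for Apoa1, another apolipoprotein gene, was 0.411 times the mean of the other AAV-GFP libraries. Of 16 listed hepatocyte markers 7 were in the table, and their summed level was 508491 to 552705 in AAV-Ly6d and 391978 to 883746 in AAV-GFP, most of it Apob in replicate 2. Of these 7 markers 6 were higher in AAV-Ly6d, 5 rose in limma and 0 fell, and the median of their log2 fold changes was 0.71. Of all tested genes 15.9% rose and 28.0% fell. The summed level of 11 of 17 listed endothelial markers was 3005 to 3736 in AAV-Ly6d, against 8223 to 13200 in AAV-GFP. For 10 of 15 stellate cell and fibroblast markers it was 1154 to 2587 in AAV-Ly6d, against 3732 to 5331 in AAV-GFP. Of 9 cholangiocyte markers Sox9 alone was analysed, at 102 to 148 in AAV-Ly6d and 33.4 to 64.1 in AAV-GFP. Of 13 Kupffer cell and leukocyte markers 0 were among the genes analysed here. In whole tissue, fewer cells of a type and less RNA per cell cannot be told apart. The part of these shifts in the values below was not tested.

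Serpina1e has near copies, so the bases that tell it from them bear on how its value can be read. The coding sequences of Serpina1a, Serpina1b, Serpina1c, Serpina1d and Serpina1e are each 1239 bases long, and Serpina1e differed from the other copies at 43 to 46 bases (96.3% to 96.5% identity). The stretch of 60 bases with most differences was bases 1101 to 1160, inside one exon on the minus strand of chromosome 12 (GRCm38, GENCODE M21). This end of a serpin's coding sequence encodes the reactive loop region. In the Serpina1e line capitals mark bases that differ in at least one copy, and in the other lines they mark bases that differ from Serpina1e.
Serpina1e, chr12:103947100-103947159: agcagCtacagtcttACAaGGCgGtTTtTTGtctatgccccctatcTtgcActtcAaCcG
Serpina1d, chr12:103763762-103763821: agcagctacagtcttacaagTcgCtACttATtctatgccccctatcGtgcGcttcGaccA
Serpina1c, chr12:103895094-103895153: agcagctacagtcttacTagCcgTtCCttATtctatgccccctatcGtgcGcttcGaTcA
Serpina1b, chr12:103728324-103728383: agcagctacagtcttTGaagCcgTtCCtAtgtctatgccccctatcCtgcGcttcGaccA
Serpina1a, chr12:103853757-103853816: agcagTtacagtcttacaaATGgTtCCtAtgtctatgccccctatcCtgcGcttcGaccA

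In this stretch Serpina1e differed from Serpina1d at 10 bases, from Serpina1b at 11 and from Serpina1a and Serpina1c at 12 each. Over the longest Serpina1e transcript of 1575 bases, 35.6% of all stretches of 50 bases also occurred in a transcript of another gene, and 7.57% of stretches of 150 bases did. The other genes were Serpina1a, Serpina1b, Serpina1c, Serpina1d and the gene model Gm8893. For Serpina1a, 67.4% of stretches of 50 bases were shared, and for Serpina1b 35.8%. Serpina7, C6, C8b and F12 shared 0 stretches of 50 bases with any other gene of the annotation, and none of these 4 genes overlapped another annotated gene. Serpina1e and Serpina1a overlapped none either, but Serpina1b overlapped 4 on its own strand: Serpina1d, Gm8893, Gm17042 and Gm17043. Neither read length nor the handling of reads that match several genes is stated in the labels, so the level of a single Serpina1 copy is uncertain.

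The bases before the start site of Serpina1e and Serpina1b are shown because these near copies differed in how far they were from their AAV-GFP level, and those of Serpina7 because its value lay in the opposite direction. The sequences are from RefSeq (GRCm38.p6), 250 bases ending just before the annotated start on the minus strand. Capitals mark matches, on either strand, to letters known from binding sites of liver transcription factors: CAAAGT for HNF4 and TTGCNNAA for C/EBP factors, and also TATAAA of the TATA box. TTCNNNGAA of STAT5 had no match in these windows.
Serpina1e, chr12:103956898-103957147: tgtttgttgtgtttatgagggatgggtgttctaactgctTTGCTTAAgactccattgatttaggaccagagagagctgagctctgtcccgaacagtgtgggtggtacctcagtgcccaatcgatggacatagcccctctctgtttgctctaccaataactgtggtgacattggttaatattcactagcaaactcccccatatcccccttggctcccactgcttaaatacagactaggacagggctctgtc
Serpina1b, chr12:103738190-103738439: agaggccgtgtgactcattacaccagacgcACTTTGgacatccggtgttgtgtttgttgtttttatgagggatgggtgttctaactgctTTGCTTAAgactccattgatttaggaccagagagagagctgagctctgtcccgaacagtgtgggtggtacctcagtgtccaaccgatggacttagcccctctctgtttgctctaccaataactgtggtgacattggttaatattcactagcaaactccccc
Serpina7, chrX:139085237-139085486: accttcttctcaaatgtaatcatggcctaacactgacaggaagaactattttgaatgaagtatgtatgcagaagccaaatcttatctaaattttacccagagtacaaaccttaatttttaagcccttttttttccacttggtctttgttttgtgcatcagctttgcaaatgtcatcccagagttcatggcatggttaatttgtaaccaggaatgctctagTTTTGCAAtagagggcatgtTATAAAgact

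The windows of 300 bases around the start sites of Serpina1e and Serpina1b could be aligned over 250 columns with 4 mismatches and 2 gap columns (97.6% identity). Serpina1a, Serpina1c and Serpina1d had 95.9%, 95.2% and 96.6% identity to Serpina1e over 243, 249 and 233 columns. Serpina1b, Serpina1d and Serpina1e held TTGCNNAA before the start, at -161, -149 and -211, while Serpina1a held it only after the start, at 24. Serpina7 held it on the opposite strand at -30, with TATAAA at -10. Counted from the other annotated start of Serpina7, these lay at -47 and -27. The annotated starts of the copies differ, so a window of fixed length does not cover the same bases in each. C6, C8b and F12 held none of the 4 motifs in this window. Of all 32851 windows of this length, 14.4% held CAAAGT, 10.8% TTGCNNAA, 8.30% TTCNNNGAA and 13.6% TATAAA. RefSeq and GENCODE place the start of Serpina1e differently, and the Serpina1e stretch lies in the first intron of the longer GENCODE transcript. The GENCODE span of Serpina1b also begins upstream of its RefSeq start, at 103830373.

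Serpina1e had the highest mean level of the 5 genes in both groups, by far in AAV-Ly6d, and the widest gap between groups. In AAV-GFP replicate 3, however, it held 6434, below the 6792 of F12. Serpina1e spans chromosome 12 from 103946931 to 103958975 on the minus strand. Its normalised read count was 89699, 136398 and 81719 in AAV-Ly6d, against 15947, 13160 and 6434 in AAV-GFP. All 3 AAV-Ly6d libraries lay above all AAV-GFP libraries, and the lowest of them held 5.12 times the highest AAV-GFP library. The means were 102605 ± 29536 in AAV-Ly6d and 11847 ± 4891 in AAV-GFP (SD, n = 3 each), a ratio of 8.66 and a log2 ratio of 3.11. Within a group the highest library held 1.67 times the lowest in AAV-Ly6d and 2.48 times the lowest in AAV-GFP. AAV-Ly6d replicate 2, with the lowest Ly6d of its group, had the highest Serpina1e.

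**Figure D1:**
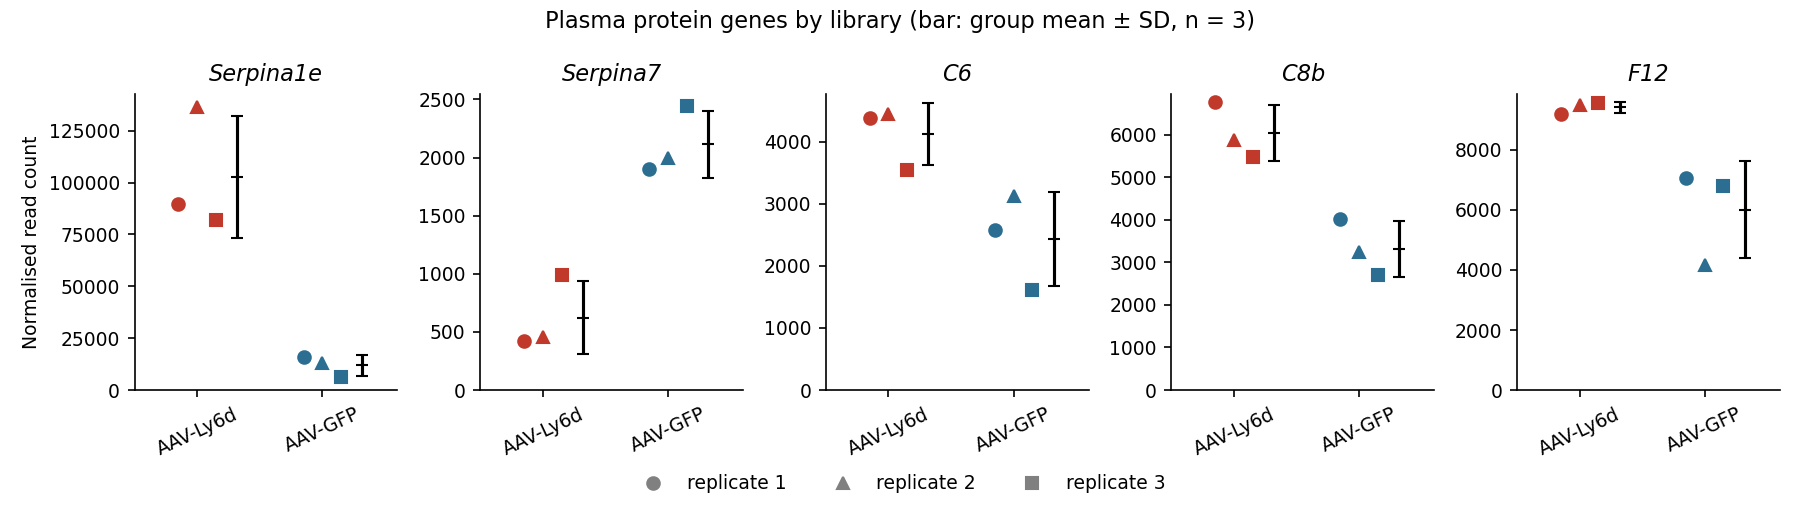
Normalised read count (vertical axes, linear from 0) of Serpina1e, Serpina7, C6, C8b and F12 in the 3 AAV-Ly6d libraries and the 3 AAV-GFP libraries, one panel per gene. Symbols are replicates, and bars are the group mean ± SD (n = 3). Serpina7 alone is lower in AAV-Ly6d, and in none of the 5 panels do the groups overlap, as is so for 84.5% of all tested genes.

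The other analysed alpha-1-antitrypsin copies were also higher in AAV-Ly6d, but by much less. Serpina1b had 110776, 103467 and 116048 in AAV-Ly6d, against 89724, 71353 and 84147 in AAV-GFP. Serpina1a had 41128, 43532 and 47273 in AAV-Ly6d, against 33570, 35664 and 30107 in AAV-GFP. Neither passed limma's adjusted p of 0.05 (log2 fold changes 0.43 and 0.41, SE 0.21 and 0.18, adjusted p = 0.0760 and 0.0669). The groups of both did not overlap, as was so for 84.5% of all tested genes. Serpina1c and Serpina1d were not analysed here.

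Serpina1e thus held a different share of the signal of these copies in each group. It made up 37.1%, 48.1% and 33.3% of the sum of Serpina1a, Serpina1b and Serpina1e in AAV-Ly6d, against 11.5%, 10.95% and 5.33% in AAV-GFP. The sum itself was 256680 ± 23202 in AAV-Ly6d and 126701 ± 10862 in AAV-GFP (SD, n = 3 each), a log2 ratio of 1.02. If each read was counted for a single copy, this sum does not depend on how reads were split among these 3 copies. Whether reads were counted so is not stated, and reads of Serpina1c and Serpina1d could still enter the sum. Without Serpina1e the sum was 154075 ± 8375 in AAV-Ly6d and 114854 ± 8155 in AAV-GFP. Serpina1e alone took 1.96% to 3.43% of the table's total in AAV-Ly6d, against 0.221% to 0.507% in AAV-GFP, whereas Serpina1b took 2.60% to 2.78% in AAV-Ly6d and 1.93% to 2.89% in AAV-GFP. The sum over copies and these shares were chosen after the values had been seen.

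**Figure D2:**
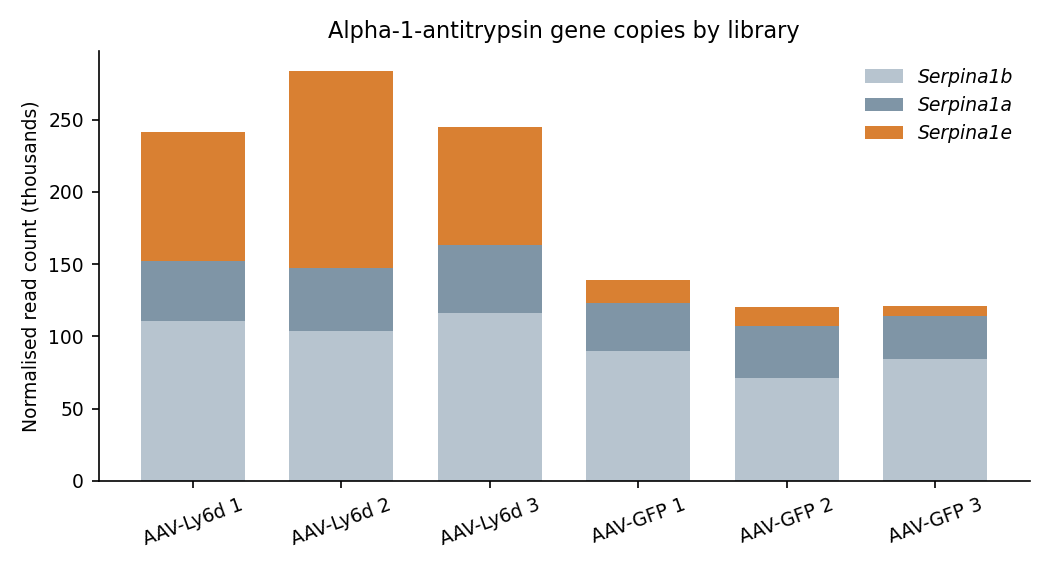
Stacked bars from 0 of the normalised read count of Serpina1b, Serpina1a and Serpina1e in each library, AAV-Ly6d left and AAV-GFP right. The Serpina1e segment is 33.3% to 48.1% of each AAV-Ly6d bar and 5.33% to 11.5% of each AAV-GFP bar.

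Serpina7, the thyroxine carrier on chromosome X (139079257 to 139085236, minus strand), was the one gene of the 5 with lower values in AAV-Ly6d. It had 426, 458 and 986 in AAV-Ly6d, against 1901, 1997 and 2444 in AAV-GFP. The groups did not overlap, and the lowest AAV-GFP library held 1.93 times the highest AAV-Ly6d library. The means were 623 ± 314 in AAV-Ly6d and 2114 ± 290 in AAV-GFP (SD, n = 3 each), a ratio of 0.295 and a log2 ratio of -1.76. AAV-Ly6d replicate 3 was 2.32 times the lowest library of its group, and without it the log2 ratio was -2.26. The smallest number of reads behind a value of the 5 genes was 438, for Serpina7 in AAV-Ly6d replicate 1.

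C8b and C6, of the terminal complement pathway, were higher in AAV-Ly6d by similar ratios. C8b (chromosome 4, 104766317 to 104804548, plus strand) had 6758, 5867 and 5464 in AAV-Ly6d, against 4011, 3243 and 2691 in AAV-GFP. Its means were 6029 ± 662 in AAV-Ly6d and 3315 ± 663 in AAV-GFP (SD, n = 3 each), a log2 ratio of 0.86. The lowest AAV-Ly6d library of C8b stood 1.36 times above the highest AAV-GFP library.

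C6 (chromosome 15, 4727175 to 4814967, plus strand) had 4380, 4445 and 3545 in AAV-Ly6d, against 2571, 3117 and 1616 in AAV-GFP. Its means were 4123 ± 502 in AAV-Ly6d and 2435 ± 760 in AAV-GFP (SD, n = 3 each), a log2 ratio of 0.76. The gap between its groups was narrow, with the lowest AAV-Ly6d library at 1.14 times the highest AAV-GFP library, and that highest library was AAV-GFP replicate 2. Without AAV-GFP replicate 2 the log2 ratio of C6 was 0.98, and without AAV-GFP replicate 3 it was 0.54.

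Of 7 listed terminal complement genes 3 were analysed. The third, C7, which encodes the component that joins the pore after component 6, had 26.2, 45.8 and 8.70 in AAV-Ly6d, against 65.8, 80.7 and 49.8 in AAV-GFP (log2 fold change -1.49, SE 0.57, adjusted p = 0.0562 in limma). C7 lies 173794 bases from the end of C6 on the same chromosome. Per kilobase of transcript, C8b held 1.98, 1.70 and 1.98 times the level of C6 in AAV-Ly6d, against 2.00, 1.34 and 2.14 times in AAV-GFP. The ranges of this ratio overlapped between the groups.

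F12, the contact phase zymogen (chromosome 13, 55417958 to 55426793, minus strand), had 9197, 9483 and 9563 in AAV-Ly6d, against 7073, 4153 and 6792 in AAV-GFP. The AAV-Ly6d libraries differed by a factor of only 1.04, while AAV-GFP replicate 2 was 0.599 times the mean of the other AAV-GFP libraries. The means were 9414 ± 193 in AAV-Ly6d and 6006 ± 1611 in AAV-GFP (SD, n = 3 each), a log2 ratio of 0.65. Without AAV-GFP replicate 2 this log2 ratio was 0.44, which is the lowest value with any library left out.

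Of 8 listed contact phase genes 4 were tested, F12 among them. The other tested genes lay in the same direction by smaller amounts and did not pass in the main limma fit. Since F12 was taken from this contrast, nothing is read from its larger value. Of the 4 genes 3 rose after rescaling by the median ratio, 4 in edgeR and 3 in DESeq2. Kng1 and Kng2, which encode kininogens, the precursors of bradykinin, had log2 fold changes of 0.43 and 0.45 (adjusted p = 0.0625 each in limma). Kng1 had 39269, 34552 and 38819 in AAV-Ly6d, against 28939, 25456 and 29262 in AAV-GFP. The kininogen genes are close copies, so their single values are uncertain. Serping1, which encodes the inhibitor of C1 and of activated factor XII, had a log2 fold change of 0.59 (adjusted p = 0.0502 in limma). Without AAV-GFP replicate 2 the log2 ratios were 0.43 for Serping1, 0.37 for Kng1 and 0.31 for Kng2, against 0.44 for F12.

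Per kilobase of the longest annotated transcript, the order of the 5 genes in AAV-Ly6d was Serpina1e, F12, C8b, C6 and Serpina7, with no overlap between neighbours. The ranges were 51885 to 86602 for Serpina1e, 4692 to 4879 for F12, 2440 to 3018 for C8b, 1232 to 1545 for C6 and 183 to 423 for Serpina7. In AAV-GFP the first 3 places were the same, at 4085 to 10125, 2119 to 3609 and 1202 to 1791. C6 and Serpina7, at 562 to 1084 and 816 to 1049, could not be ordered there. The summed value of the 5 genes was 122796 ± 29677 in AAV-Ly6d and 25716 ± 5763 in AAV-GFP (SD, n = 3 each), and Serpina1e was 80.7% to 87.1% of it in AAV-Ly6d and 32.2% to 51.3% in AAV-GFP. Without Serpina1e the sums were 20190 ± 604 in AAV-Ly6d and 13870 ± 1549 in AAV-GFP.

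**Figure D3:**
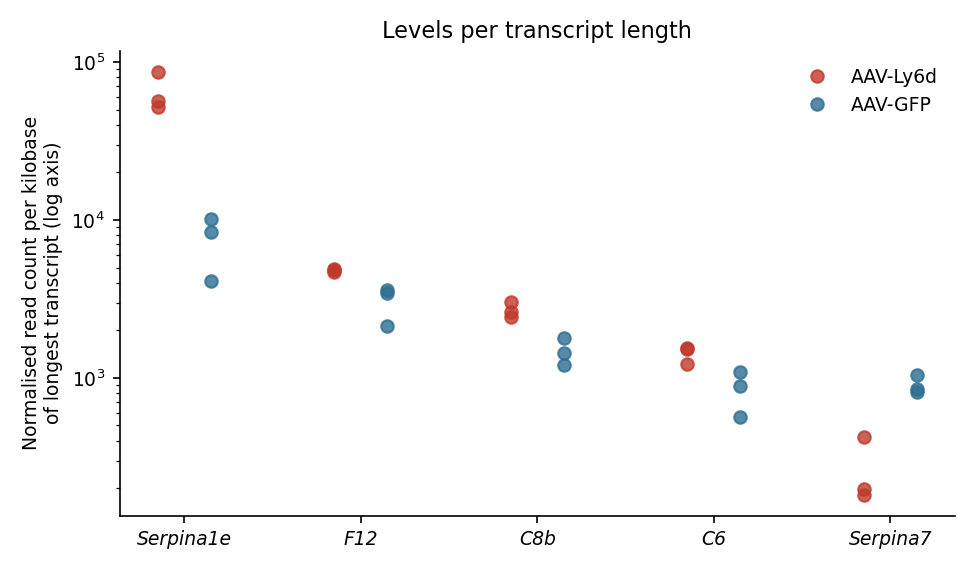
Normalised read count per kilobase of the longest annotated transcript (log axis) for the 5 genes, one point per library, AAV-Ly6d left and AAV-GFP right of each gene's position. Serpina1e is highest in both groups, and Serpina7 (183 to 423) lies below C6 (1232 to 1545) in AAV-Ly6d, while the points of these genes overlap in AAV-GFP.

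Differences across the whole table were tested with limma on log2(value + 1), over the 1780 genes that reached 1 in 3 or more libraries. A gene "rose" or "fell" at a Benjamini-Hochberg adjusted p under 0.05. Of the tested genes 43.9% passed, 15.9% that rose and 28.0% that fell, and the groups did not overlap for 84.5%. All 5 plasma protein genes passed, 4 of them higher, and had groups that did not overlap. Since they had been taken from this contrast, nothing is read from that. In DESeq2 1544 of the 1834 listed genes had an unadjusted p under 0.05, so the table appears selected for a difference between these same libraries. Calls and adjusted p-values therefore only order genes inside the table. They do not measure how often such differences would arise without an effect. Over the tested genes limma's median log2 fold change was -0.67, and it was -0.33 after each library had been rescaled by the median ratio. The rescaling moved the log2 ratios of means of the 5 genes to 3.45 for Serpina1e, -1.44 for Serpina7, 1.13 for C6, 1.19 for C8b and 0.94 for F12.

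Transcript length moved with the direction of change in the table. The 890 tested genes with a transcript of at most 3622 bases, the median length, had a median log2 fold change of 0.47, and the 889 longer ones -0.82. The 5 genes have longest transcripts of 1575 to 2876 bases, and the 358 tested genes in that range had a median of 0.53. The limma log2 fold changes of C6 (0.80), C8b (0.88) and F12 (0.69) lie near that median, and those of Serpina1e (3.18) and Serpina7 (-1.86) do not. The part of length in these values was not tested.

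Among the other plasma protein genes that were tested, most had higher values in AAV-Ly6d, and most did not pass. Listed genes outside the table have no value here, so their direction is unknown. Of 154 genes on 9 lists of plasma proteins and their regulators and receptors, the 5 genes left out, 32 were tested: 4 rose, 6 fell and 22 did not pass, where 15.9% of all tested genes rose and 28.0% fell. Their median log2 fold change was 0.46, against -0.67 over all tested genes and 0.53 over those in the length range of the 5 genes. Of the 32 genes 23 were above 0, as were 700 of all 1780 tested genes. The calls of these 32 genes depended on the scaling and on the test. In limma after rescaling by the median ratio 15 rose and 5 fell. On recovered reads 20 rose and 5 fell of 31 in edgeR with TMM factors. In DESeq2, which kept the factors of the deposited values, 15 rose and 6 fell. The calls also depended on single libraries. Leaving out AAV-Ly6d replicate 1, limma called 0 of them, with 12 at an unadjusted p under 0.05, and it called 4 when replicate 2 of that group was dropped and 1 when replicate 3 was. With AAV-GFP replicate 1, 2 or 3 dropped it called 4, 12 or 5.

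The 4 that rose belong to different lists. Hamp, the gene of the iron hormone hepcidin, had 11352, 9684 and 7813 in AAV-Ly6d, against 5130, 2529 and 1652 in AAV-GFP, and rose by 1.77 (SE 0.38, adjusted p = 0.0324 in limma). Igfbp1, which encodes a carrier of insulin-like growth factors, rose by 1.72, F3, the tissue factor gene, by 0.97 and Itih2, which encodes a heavy chain of inter-alpha-trypsin inhibitor, by 0.68. F3 was low, with 52.8 to 69.99 in AAV-Ly6d and 25.2 to 33.8 in AAV-GFP.

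The 6 that fell include genes known as products of endothelium. F8, the factor VIII gene, fell by 1.99 on the log2 scale, Vwf, the von Willebrand factor gene, by 2.15 and Tfpi, an inhibitor of the tissue factor pathway, by 1.11. All 11 analysed endothelial markers fell, F8 and Vwf among them, where 28.0% of all tested genes fell. The part of the endothelial shift in Tfpi was not tested. Colec10, a collectin gene of the lectin pathway, had 179, 329 and 347 in AAV-Ly6d, against 772, 1098 and 812 in AAV-GFP, and fell by 1.69 on the log2 scale. Cd55, which encodes a membrane protein that dissociates complement convertases, fell by 1.10 on the log2 scale. Cr2, a complement receptor gene, also fell, but held at most 1.99 in AAV-Ly6d and 9.68 in AAV-GFP.

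Of 40 listed protease inhibitors 14 were tested, and 13 had higher values in AAV-Ly6d, of which 2 passed (Serpina1e and Itih2), while Tfpi fell. For the counts of this paragraph, 700 of all 1780 tested genes had higher values, 15.9% rose and 28.0% fell. Log2 fold changes of those that did not pass were 0.32 to 0.79, among them Serpina3k (0.52), Ahsg, the fetuin-A gene (0.61), and Serpinf1, which encodes pigment epithelium-derived factor (0.72). Of 27 listed carriers 5 were tested, of which Igfbp1 rose, Serpina7 fell and 3 did not pass. Rbp4, the retinol carrier gene, had 54671, 51772 and 62700 in AAV-Ly6d, against 43514, 41041 and 36549 in AAV-GFP (log2 fold change 0.48, adjusted p = 0.0595 in limma). Serpina7 was thus the one tested carrier with a lower value. In the clotting list 7 of 25 genes were tested, of which F3 rose, F8, Vwf and Tfpi fell and 3 did not pass. F2, the prothrombin gene, had a log2 fold change of 0.58 (adjusted p = 0.0655) and Ggcx, the enzyme gene for vitamin K-dependent carboxylation, one of -0.70 (adjusted p = 0.0540), both in limma.

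**Figure D4:**
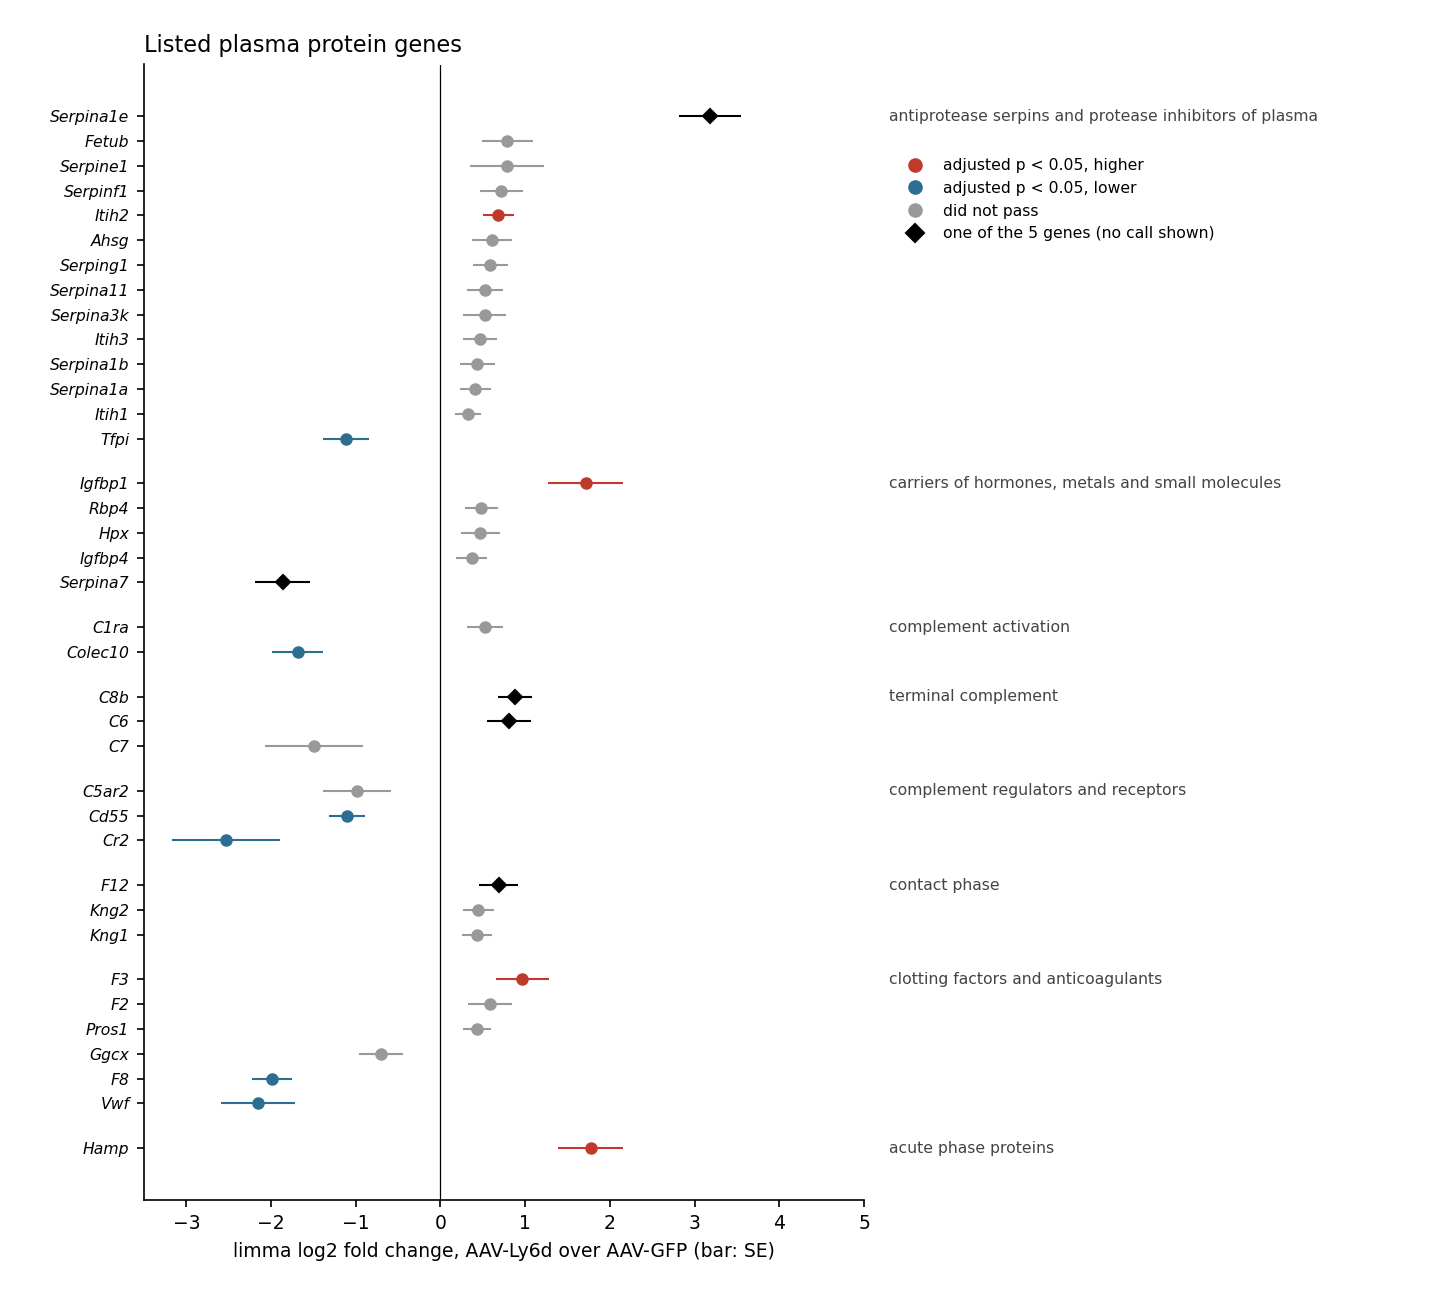
Log2 fold change from limma (AAV-Ly6d over AAV-GFP, horizontal axis, bars are SE) of the 37 tested genes of the plasma protein lists, each drawn under the first list that holds it. Red and blue circles passed as higher and lower, grey circles did not pass, and black diamonds are the 5 genes taken from this contrast, which lie at 3.18, -1.86, 0.80, 0.88 and 0.69 for Serpina1e, Serpina7, C6, C8b and F12.

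Regulators of plasma protein genes were described from the same fit. Of 30 listed hepatocyte transcription factor genes 5 were tested, all 5 with higher values, 2 rose and 3 did not pass. Hnf4a rose by 0.65 and Foxa3 by 1.07 (adjusted p = 0.0409 and 0.0408 in limma), while Cebpa (0.47) and Dbp (1.10) were among those that did not pass. Limma called 0 of the 5 with any AAV-Ly6d library or AAV-GFP replicate 1 or 3 left out, where 2 to 5 had an unadjusted p under 0.05, and 3 without AAV-GFP replicate 2. After rescaling and in edgeR 4 were called, and in DESeq2 3. Foxa3 in AAV-GFP replicate 2 was 0.494 times the mean of the other AAV-GFP libraries, and Dbp 0.306 times. Of 13 listed genes of thyroid hormone action 1 was tested, Thrsp, a gene induced by thyroid hormone, with 315, 99.7 and 391 in AAV-Ly6d, against 399, 320 and 938 in AAV-GFP. Its groups overlapped, and it did not pass (log2 fold change -1.09, adjusted p = 0.0986 in limma). Of 43 listed genes of the secretory pathway 2 were tested and neither passed, Mcfd2 (0.46), whose product helps export clotting factors from the endoplasmic reticulum, and Ssr4 (0.38).

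For each gene the nearest profiles among 1552 other named tested genes were found by the root mean square difference of centred log2(value + 1) over the 6 libraries. F12 lay nearest to Fbp1 (0.04), the gluconeogenic phosphatase gene, then to the chaperonin gene Cct2 (0.06) and the ribosomal protein gene Rpl32 (0.06). C6 lay nearest to Id2 (0.12), Asl (0.15) and Ipmk (0.18), and C8b to Id3 (0.12), Map3k5 (0.15) and Rbm3 (0.16). For the genes with the larger differences the nearest profiles were farther away and of low level. Serpina7 lay nearest to Ndn (0.16), Grid1 (0.18) and Atp6v0e2 (0.25), whose means were at most 7.63 in AAV-Ly6d and 23.9 in AAV-GFP. Serpina1e lay nearest to Slc35f1 (0.44), Bmx (0.51) and Slc7a15 (0.52), which had 0 in all AAV-GFP libraries and means of 5.06 to 6.85 in AAV-Ly6d.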

How the data were processed

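Liver RNA of 6 libraries was sequenced. Per the submitters' processing notes, Bowtie 0.12.2 and the mm10 build were used, with no step named. How reads were counted and normalised, the strand setting, the annotation and the read length are not stated in the labels. Values deposited by the authors are a signal, reads divided by one factor per library. In each column 100% of values were whole multiples of one step (within 0.01), so reads could be recovered. Since only 1834 genes are listed, total depth is unknown. Identifiers were matched to GENCODE M21 (GRCm38, the mm10 assembly), and 1833 had a symbol.

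The 5 genes, the lists, the motifs and the tests were chosen with earlier results of these data known. The main test was limma (3.58.1, R 4.3.3, eBayes with a trend) on log2(value + 1), which understates the change of low genes, without covariates. "Log2 ratio" is of group means of the values, and "log2 fold change" is limma's. edgeR 4.0.16 (quasi-likelihood test, TMM factors) and DESeq2 1.42.0 (factors of the deposited values) were run on recovered reads as alternatives. DESeq2 gave 1544 genes an unadjusted p under 0.05, and its largest p was 0.0911, so the table was treated as chosen for a difference. The tests were tried on simulated data. Genes named are the 5, listed plasma protein genes, at most 4 of each other list with the smallest p, the 3 nearest profiles and Ly6d. Apob and Apoa1 fall outside this rule and were named after their values were seen. Promoters were aligned with Biopython 1.88 (local, match 1, mismatch -1, gap opening -3, gap extension -1).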

Additional observations from a re-analysis of the deposited data

How the results depend on the processing

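The log2 ratios of means of the 5 genes kept their direction in every setting tried (each library left out, median-ratio rescaling, group medians, limma with and without the replicate block). Most of this was fixed beforehand. The groups of these genes did not overlap, so leaving out a library or taking medians could not reverse a direction. Limma gave the same log2 fold changes with and without the replicate block. With each library left out the log2 ratios were 2.82 to 3.39 for Serpina1e, -2.26 to -1.55 for Serpina7, 0.54 to 0.98 for C6, 0.73 to 1.02 for C8b and 0.44 to 0.78 for F12. More than the spread between libraries were the moves of Serpina7 to -2.26 without AAV-Ly6d replicate 3, of C8b to 1.19 after rescaling, of Serpina1e to 1.02 when summed with Serpina1a and Serpina1b, and of the summed 5 genes from 2.26 to 0.54 without Serpina1e.

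The number of called genes was less stable. Over the table limma called 782, and 0 to 607 with each library left out (0 without AAV-Ly6d replicate 1, where 773 had an unadjusted p under 0.05), 48 with the replicate block and 1 after adjustment over all 55450 annotated genes. Other scalings gave 935 (69.4% higher, against 36.2%) after rescaling and 944 (64.9% higher) in edgeR. DESeq2, with the factors of the deposited values, gave 1139 (39.7% higher). Of the 37 listed plasma protein genes, the 5 included, 15 were called, 0 to 17 with each library left out, 6 with the replicate block, 25 after rescaling, 30 in edgeR and 26 in DESeq2. Of the 5 transcription factor genes 2 were called, and 0 with the replicate block. The cause of these differences was not tested. Libraries of the same number did not deviate together (correlations -0.02, -0.05 and -0.06), so no pairing by number was seen, although so few libraries cannot exclude one. Precision is limited by 3 libraries a group.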
